A study of Drosophila melanogaster with 4 samples.

Results

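The genes described here are 10 components of the Wingless pathway in *Drosophila*, taken by symbol from the 13909 genes that the deposited transcript quantification covers. They are the receptors *fz*, *fz2* and *arr*, the relay protein *dsh*, the destruction complex genes *Axn*, *Apc*, *Apc2* and *sgg*, the effector *arm* and the feedback inhibitor *nkd*. All 10 had enough counts to be tested. The rule names the genes and uses no measured value, although earlier results of these data were known when it was set.

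Wingless is the founding Wnt protein of the fly. It binds a Frizzled receptor (*fz* or *fz2*) together with the co-receptor Arrow, the fly LRP5/6 protein encoded by *arr*. Without ligand, a complex built on the scaffold Axin, with the APC proteins and the kinase Shaggy (the fly GSK3), marks Armadillo (the fly beta-catenin) for destruction. Ligand binding recruits Dishevelled and Axin to the membrane, Armadillo then accumulates and enters the nucleus, and it turns on target genes with the DNA-binding protein Pangolin (TCF). *Naked cuticle* (*nkd*) is a target of the pathway that binds Dishevelled and restrains it. S2R+ cells are a haemocyte-like line from late embryos that is used to study this pathway because it carries Frizzled receptors and answers to added Wingless, while many S2 sublines do not.

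Total RNA of wild-type S2R+ cells was compared with that of S2R+ cells carrying a CRISPR deletion of the enhancer in an intron of *Notch*, the genotype labelled CRISPR-mutant-enhancer, with 2 libraries per genotype and paired-end reads of 150 bp. The labels name no Wingless or other treatment, and both genotypes were grown in serum-supplemented Schneider's medium at the same temperature. The mutant came from cells transfected with Cas9 plasmids, selected with puromycin and cloned in conditioned medium, steps not described for wild-type cells. It is a line expanded from a single cell clone of a tetraploid culture, and no unedited clone was sequenced. The deletion, these steps and other differences of that clone therefore cannot be told apart. The labels do not say whether the libraries came from separate cultures, so the p values measure only the spread between these libraries, which may be technical.

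The wild-type libraries held 19410313 and 16240543 estimated counts and the mutant libraries 29605002 and 24880286. *Notch* fell 3.90-fold, from 160 and 126 TMM-normalized CPM (counts scaled to library size adjusted by its TMM factor) to 38.1 and 35.3. Of the haemocyte markers, *srp*, *ush*, *Pxn* and *crq* stood at 17.9 TPM (abundance scaled to transcript length and library size) or more in every library, whereas *NimC1* had at most 2 counts and *Hml* at most 0.705 TPM. The summed TPM of the haemocyte markers was 216 to 230 in wild-type and 209 to 237 in the mutant. Within this sum *crq* went from 73.5 and 73.8 TPM to 124 and 113 TPM, while *srp* and *ush*, neither of them called, were lower in TPM. Of the 8 tested markers 5 were called, 3 lower and 2 higher, against 27.9% of all genes tested. *Hml*, *Col4a1* and *vkg* were lower (log2 fold changes -1.79, -1.29 and -0.54), and *He* and *crq* were higher (2.75 and 1.12). Epithelium markers summed to 24.8 to 27.3 TPM in wild-type and 12.1 to 14.8 TPM in the mutant. Of these 5 markers 4 were called lower, against 15.3% of all genes tested, and none was at 0. Of 4 tested germline markers *bam*, *zpg* and *nanos* were lower (log2 fold changes -3.24, -2.99 and -2.22) and *aub* was higher (0.76), and their list summed to 69.1 to 76.8 TPM in wild-type and 62.4 to 76.8 TPM in the mutant. The fat body marker *apolpp* was higher (2.52), in a list that summed to at most 2.1 TPM in any library. The part of these markers in the results below was not tested. In bulk RNA, fewer cells that express a gene and less RNA per cell cannot be told apart.

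Calls required an edgeR quasi-likelihood test with an adjusted p under 0.05 together with a log2 fold change of 0.5 or more in either direction. By this rule 5 of the 10 members were lower in the enhancer mutant (*nkd*, *fz*, *Apc*, *Apc2* and *arr*) and 0 were higher. Over all 8182 genes tested, 27.9% were called, 15.3% lower and 12.6% higher. The median log2 fold change was -0.39 over the 10 members and -0.0037 over all genes tested. The lower members sit at the membrane (*fz*, *arr*), in the destruction complex (*Apc*, *Apc2*) and among the pathway's own inhibitors (*nkd*). The members that were not called include the most abundant ones, *arm* and *sgg*.

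**Figure D1:**
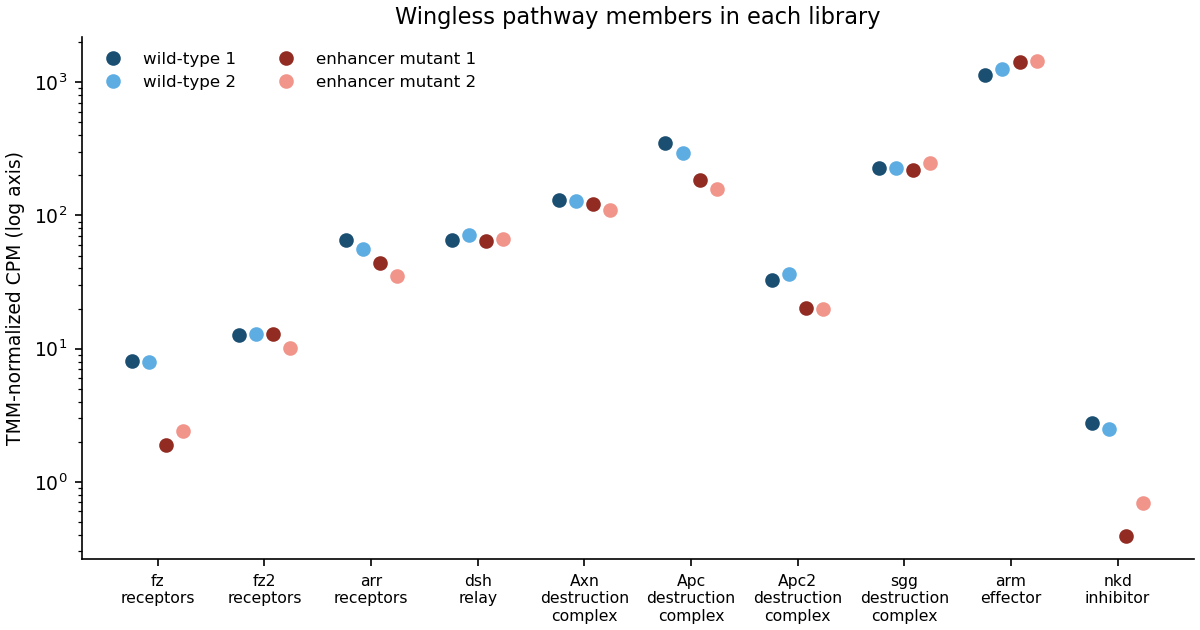
TMM-normalized CPM (log axis) of the 10 members, 1 point per library, for wild-type replicates 1 and 2 (blue) and enhancer mutant replicates 1 and 2 (red). Both mutant points lie below both wild-type points for *fz*, *arr*, *Axn*, *Apc*, *Apc2* and *nkd*, and above them for *arm*. Over all genes tested, both lay below for 37.9% and above for 37.7%.

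*fz* (FBgn0001085, chromosome 3L, 14274343 to 14368639) encodes Frizzled, a seven-pass membrane receptor that works both in Wingless signalling and in planar cell polarity. It had 8.11 and 7.99 CPM in the wild-type libraries, and the mutant libraries had 1.90 and 2.40 CPM. The groups did not overlap, and the mutant stood 3.76-fold lower (log2 fold change -1.91, standard error 0.219, edgeR adjusted p = 6.81e-05). The underlying counts were 166 and 140 against 53 and 55, so the receptor was a low-abundance transcript in both genotypes.

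*fz2* (FBgn0016797, chromosome 3L, 19140975 to 19235373) encodes Frizzled 2, the receptor with high affinity for Wingless. Its values were 12.6 and 12.9 CPM in wild-type against 12.8 and 10.0 CPM in the mutant. The groups overlapped, and the log2 fold change of -0.15 (standard error 0.153) did not pass the test (edgeR adjusted p = 0.439). The ratio of *fz2* to *fz* TPM within a library was 1.27 and 1.32 in wild-type against 5.61 and 3.51 in the mutant, with no overlap. This difference between the sister receptors was not tested itself.

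*arr* (FBgn0000119, chromosome 2R, 13453640 to 13483229), the co-receptor, had 65.5 and 55.5 CPM in wild-type against 44.3 and 35.1 CPM in the mutant. All wild-type values exceeded all mutant values, with a log2 fold change of -0.61 (standard error 0.124, edgeR adjusted p = 0.00243). This was the smallest of the called changes, and it missed the call in refits of 3 libraries: without wild-type replicate 1 it was -0.48 (edgeR adjusted p = 0.000384) and without enhancer mutant replicate 2 it was -0.44 (edgeR adjusted p = 0.0567).

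*dsh* (FBgn0000499, chromosome X, 11355881 to 11358724) encodes Dishevelled, the cytoplasmic protein through which Frizzled acts. It had 65.3 and 71.7 CPM in wild-type against 64.0 and 66.2 CPM in the mutant. The libraries of the genotypes overlapped, and the log2 fold change was -0.07 (standard error 0.0945, edgeR adjusted p = 0.542).

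In the destruction complex the APC genes and the other members differed in their outcome. *Apc* (FBgn0015589, chromosome 3R, 28832301 to 28844748), the larger APC protein, known from the fly nervous system, had 347 and 293 CPM in wild-type against 186 and 157 CPM in the mutant. By the fitted fold change it fell by 46.5% (log2 fold change -0.90, standard error 0.116, edgeR adjusted p = 0.000147). *Apc2* (FBgn0026598, chromosome 3R, 24163966 to 24168264), the more widely expressed APC protein, had 32.5 and 36.5 CPM in wild-type against 20.1 and 19.9 CPM in the mutant. Its log2 fold change was -0.79 (standard error 0.103, edgeR adjusted p = 0.00016), so both APC genes were lower with no overlap between genotypes. Within a library *Apc* held 82.1% and 77.5% of the summed TPM of the pair in wild-type against 80.2% and 77.4% in the mutant, and these ranges overlap.

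*Axn* (FBgn0026597, chromosome 3R, 30022842 to 30035311), the scaffold of the complex, had 130 and 129 CPM in wild-type against 122 and 109.7 CPM in the mutant. Although neither mutant library reached the lower wild-type one, as was the case for 37.9% of all genes tested, the log2 fold change of -0.16 (standard error 0.0952) did not pass the test (edgeR adjusted p = 0.177). *sgg* (FBgn0003371, chromosome X, 2633952 to 2679553), the kinase, had 228 and 229 CPM in wild-type against 219.6 and 247 CPM in the mutant. These values straddled the wild-type ones, with a log2 fold change of 0.03 (standard error 0.0944, edgeR adjusted p = 0.816) whose sign turned with upper quartile factors, with library sizes alone, without enhancer mutant replicate 2 and in TPM. The TPM ratio of *Apc* to *Axn* was 1.39 and 1.17 in wild-type against 0.785 and 0.725 in the mutant, 2 ranges that do not overlap and that do not depend on the scaling between libraries.

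*arm* (FBgn0000117, chromosome X, 1891401 to 1900646) encodes Armadillo, which is both the pathway's effector and a structural part of adherens junctions. It was the most abundant member, with 1141 and 1268 CPM in wild-type against 1432 and 1458 CPM in the mutant. Both mutant libraries were above both wild-type libraries, as for 37.7% of all genes tested, and the log2 fold change of 0.26 (standard error 0.105) did not pass (edgeR adjusted p = 0.0596). The adjusted p was under 0.05 with DESeq2 (0.28, DESeq2 adjusted p = 0.0128) and with no filter on low counts (0.30, edgeR adjusted p = 0.0114). It was also under 0.05 with a replicate block (0.26, edgeR adjusted p = 0.0243), but each of these changes stayed under the fold threshold. The direction depends on the scale. In TPM the mutant libraries, at 373 and 343, lay below the wild-type libraries, at 377 and 439, a log2 ratio of -0.19, and both were below for 71% of all genes tested. The median gene tested moved by -0.44 on that scale, and relative to it *arm* stood at 0.25. Set against *Apc* in the same library, *arm* TPM was 9.59 and 12.6 times as high in wild-type against 22.6 and 27.2 times in the mutant. *Apc* was itself called lower. Relative to *Axn*, which was not called, *arm* TPM was 13.3 and 14.7 times as high in wild-type against 17.8 and 19.7 times in the mutant.

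*nkd* (FBgn0002945, chromosome 3L, 19003741 to 19045449) had the largest fold change of the members. It had 2.79 and 2.51 CPM in wild-type against 0.394 and 0.698 CPM in the mutant, from 57 and 44 counts against 11 and 16. The log2 fold change was -2.30 (standard error 0.363, edgeR adjusted p = 0.000536), and it ranged from -2.72 to -1.90 with each library left out. The small counts make its size the least certain of the called members.

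**Figure D2:**
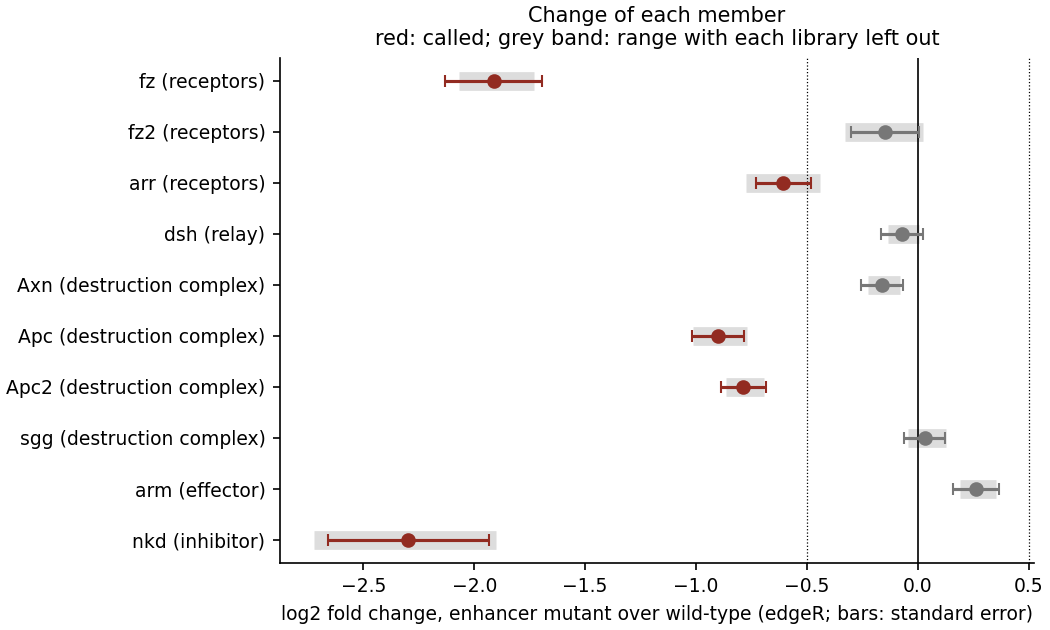
Log2 fold change of each member, enhancer mutant over wild-type, from edgeR, with its standard error (bars) and the range of the estimate with each library left out in turn (grey band); dotted lines mark the threshold of 0.5 in either direction. The called members (red) lie between -2.30 for *nkd* and -0.61 for *arr*, and the grey points of *fz2*, *dsh*, *Axn*, *sgg* and *arm* lie between -0.16 and 0.26.

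Because TPM is a value per transcript length, it allows the members to be set side by side. In wild-type the order was *arm* (408 ± 44.0 TPM, SD, n = 2), *sgg* (60.4 ± 3.43), *Apc* (37.1 ± 3.06), *Axn* (29.1 ± 1.10), *dsh* (25.8 ± 2.62), *arr* (9.83 ± 0.771), *Apc2* (9.36 ± 1.12), *fz2* (2.76 ± 0.167), *fz* (2.13 ± 0.0661) and *nkd* (0.539 ± 0.0172). Only the neighbours *arr* and *Apc2* overlapped in that order. *arm* was thus the most plentiful and *nkd* the scarcest, with both Frizzled receptors next to *nkd* at the low end. In the mutant *Apc* moved from rank 3 to rank 5, behind *Axn* and *dsh*, with 14.6 ± 2.76 TPM, and the other members kept their relative order. The mutant values of *Axn* and *dsh* overlapped, as did those of *arr* and *Apc2*.

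The Frizzled family has 4 genes, and the shares below describe which receptor transcripts the cells held. *fz4*, a Frizzled that binds other Wnt proteins, was the largest part in every library, with 47.7% and 45.8% of the summed family TPM in wild-type against 46.8% and 52.2% in the mutant. *fz* held 18.2% and 18.1% in wild-type against 7.04% and 9.35% in the mutant. *fz2* held 23.1% and 23.9% in wild-type against 39.5% and 32.8% in the mutant. The share of *fz* was lower and that of *fz2* higher in both mutant libraries, while the summed level was 11.4 and 12.0 TPM in wild-type and 5.41 and 4.77 TPM in the mutant. On the TPM scale the median gene tested moved by a log2 ratio of -0.44, and both mutant libraries were below for 71% of all genes tested. *fz2* by itself stood at -0.58 on that scale and at -0.15 in edgeR, where it was not called.

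**Figure D3:**
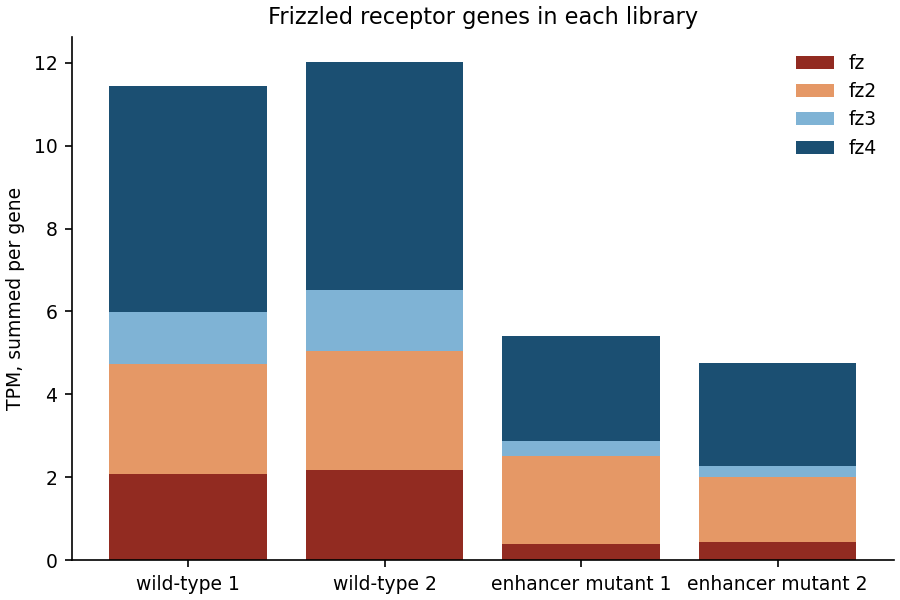
TPM of *fz*, *fz2*, *fz3* and *fz4* stacked for each library. The stacks reach 11.4 and 12.0 TPM in wild-type and 5.41 and 4.77 TPM in the enhancer mutant, with *fz4* the largest part in each of the 4 libraries. The median gene tested moved by a log2 ratio of -0.44 on this scale.

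The members do not lie in 1 region of the genome (dm6 coordinates). *arm*, *sgg* and *dsh* share the X chromosome with *Notch*, and none of these X-linked members was called. *arm* and *sgg* lie before the start of *Notch*, with *sgg* ending 455 kb before it, and *dsh* lies 8180 kb beyond its end. The authors place the large domain lost in the mutant downstream of *Notch*. The part of position in these results was not tested. *nkd* and *fz2* are neighbours on chromosome 3L, 95.5 kb apart, and only *nkd* was called. The 20 nearest tested genes of each member (10 on either side) had a median log2 fold change between -0.22, around *Apc*, and 0.15, around *Apc2*. Around *Apc*, 7 of the 20 neighbours were called lower and 3 higher, where the shares of all genes tested were 15.3% and 12.6%. Around *fz*, 3 were lower and 3 higher, around *nkd* 2 and 2, and around *arr* and *Apc2* none was lower. Around the members that were not called, 1 to 3 neighbours were lower and 1 to 2 higher. Some exons overlap another gene: 11.6% of the exonic bases of *Apc2* are shared with *CG5510* on the opposite strand, 11.8% of those of *sgg* with a non-coding RNA on the same strand, 7.5% of *Axn* and 2.3% of *arm* with opposite-strand neighbours. Whether the libraries kept strand is not stated, so reads from those stretches cannot be assigned with certainty, while *fz*, *fz2*, *arr*, *dsh*, *Apc* and *nkd* share none.

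Salmon divides reads among 48 annotated transcripts of these genes. The members with several transcripts number 7, and in 6 of them the same transcript led by TPM in all 4 libraries (*arm-RA*, *sgg-RF*, *Axn-RA*, *Apc-RC*, *Apc2-RA* and *fz2-RD*). By estimated counts this held for 5, since *Apc2-RC* led in enhancer mutant replicate 1. *arm-RA* held 63.7% and 65.2% of the TPM of *arm* in wild-type against 63.7% and 63.9% in the mutant. *sgg-RF* held between 47.3% and 48.8% of *sgg* in the 4 libraries. *sgg-RE*, which codes for the same protein, held 21.8% and 26.6% in wild-type against 30.9% and 27.9% in the mutant. All transcripts of *sgg* with this coding sequence of 1542 bases together held 71.2% and 75.2% against 80.8% and 79.8%. *sgg-RD*, with a longer coding sequence of 3201 bases, held 6.88% and 6.69% against 4.51% and 3.40%, a form whose log2 fold change of -0.73 did not pass (edgeR adjusted p = 0.0595) except when the test was limited to transcripts that reached 10 counts in each of the libraries. *sgg-RQ*, the longest at 3504 bases, held 6.09% and 3.73% against 2.67% and 2.82%. The share was also lower in both mutant libraries for *sgg-RG*, whose coding sequence of 1488 bases is shorter than 1542, with 11.4% and 12.0% against 9.07% and 10.2%. The form of 1542 bases thus held a larger share in both mutant libraries and these 3 forms a smaller one, a description from estimated values. The leading transcript of *nkd* was *nkd-RA* in 3 libraries, with too few counts to divide in the mutant.

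**Figure D4:**
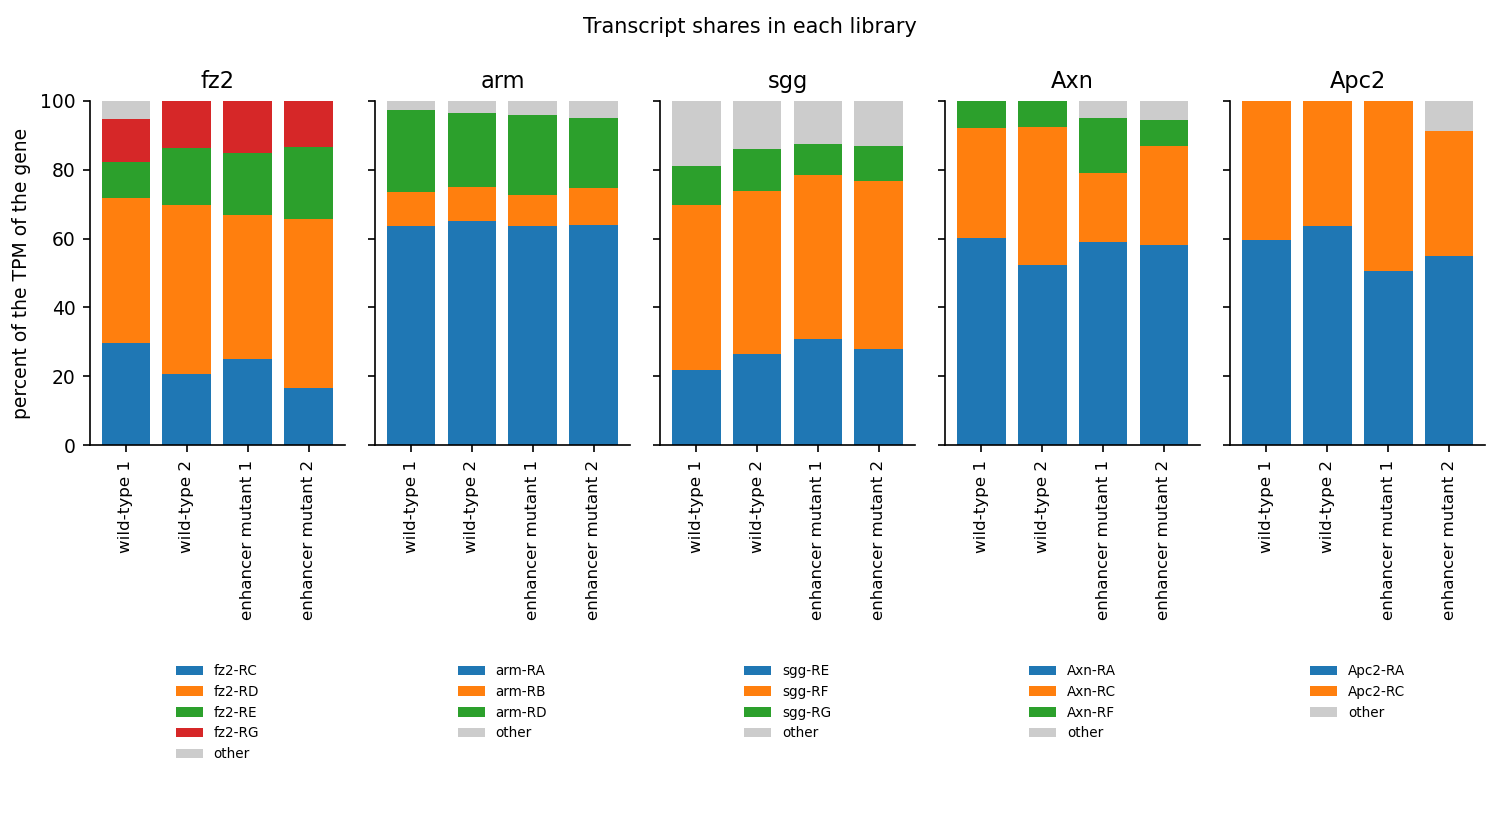
Percent of each gene's TPM held by its transcripts in the 4 libraries, for *fz2*, *arm*, *sgg*, *Axn* and *Apc2*; transcripts that hold at least 10% in any library are drawn apart and the rest are pooled in grey. *arm-RA* stays between 63.7% and 65.2%, and the share of *Axn-RC* is 32.1% and 39.9% in wild-type against 20.1% and 28.8% in the mutant.

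Tested transcript by transcript, 33 of the 48 had enough counts and 5 were called, against 10.5% of the 16331 transcripts tested in the whole series (4.48% lower, 6.05% higher). The 3 lower ones were *fz-RA*, *Apc-RC* and *Apc2-RA*, each the only transcript of its gene or the leading one by TPM. Both higher ones are minor forms, named after their values were seen. *arm-RC*, whose coding sequence of 2163 bases is shorter than the 2529 bases of the other *arm* transcripts, rose from 35 and 49 counts to 524 and 316 (log2 fold change 2.84, edgeR adjusted p = 0.0245) but held only 1.31% and 0.948% of *arm* TPM in the mutant. *Axn-RG* went from 0 counts in both wild-type libraries to 132 and 107 in the mutant ones, or at least 29.6-fold more against a floor of 3 counts per library (edgeR adjusted p = 0.0231). It has the same coding sequence of 2217 bases as *Axn-RC*. Together these forms held 32.1% and 39.9% of *Axn* TPM in wild-type against 25.2% and 34.3% in the mutant, and these ranges overlap. The 5 transcript calls rest on few libraries. Without wild-type replicate 1 the number was 1, without wild-type replicate 2 it was 2, and without either mutant replicate it was 0, although 12 and 9 member transcripts then had an unadjusted edgeR p under 0.05. With at least 10 counts in every library 7 transcripts were called, 6 lower and 1 higher, with *arr-RA*, *sgg-RD* and *Axn-RC* added and *Axn-RG* not tested. The files give no uncertainty for the division of reads among transcripts of a gene.

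Other genes of the pathway were read from the same fit by lists of their roles. Of 62 further genes, 61 are in the quantification and 51 could be tested, of which 14 were called, 10 lower and 4 higher. That is 27.5%, close to the 27.9% of all genes tested, and the median log2 fold change was -0.16. With library sizes alone the split was 16 lower and 2 higher, on a scale where the median of all genes tested was -0.20. On the adjusted p alone 29 of the 51 passed, 18 lower and 11 higher, or 56.9%, against 48.7% of all genes tested (24.2% lower, 24.5% higher).

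**Figure D5:**
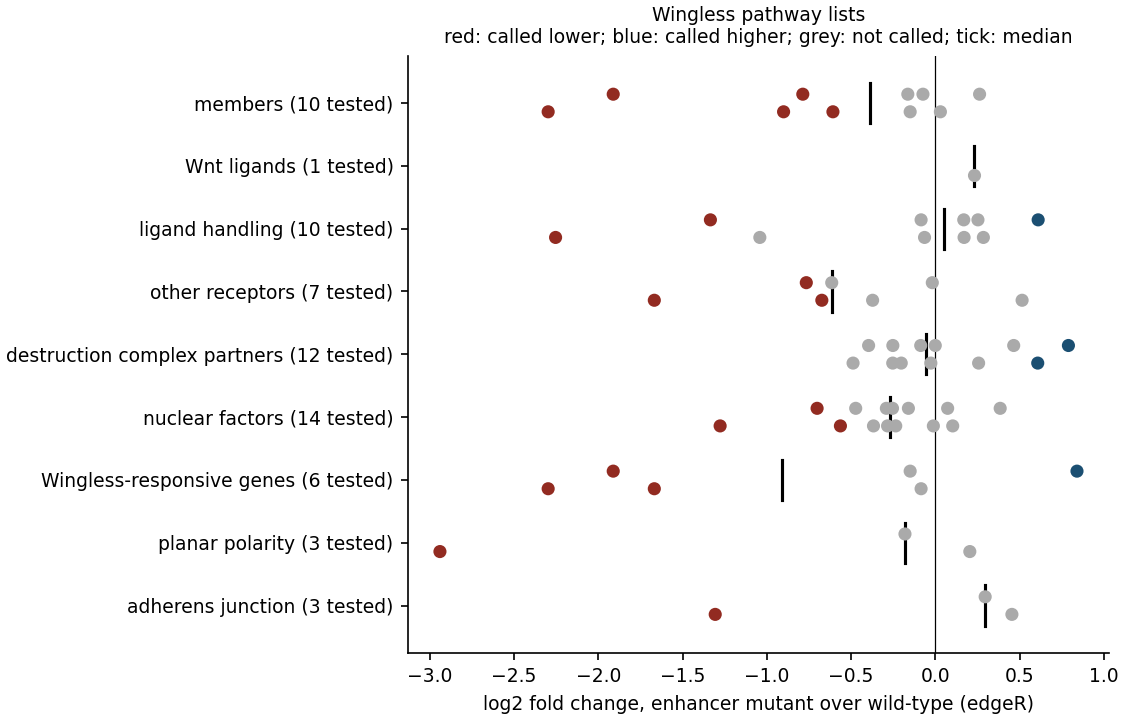
Log2 fold change, enhancer mutant over wild-type, of every tested gene in the member list and 8 lists of pathway genes, 1 point per gene, with the median of the list as a tick. Called genes are red where lower and blue where higher; the called points of the other receptors are all red, and *SkpA* and *mts* are the blue points among the destruction complex partners.

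Of the Wnt ligands, 6 of the 7 listed genes are in the files and only *Wnt5* could be tested. It had 46.6 and 46.7 CPM in wild-type against 55.2 and 54.0 CPM in the mutant (log2 fold change 0.23, edgeR adjusted p = 0.0501), and in TPM its log2 ratio was -0.23. *wg*, which encodes Wingless, had 0 counts in all 4 libraries, which allows up to 3 counts in each. *Wnt2*, *Wnt4*, *Wnt6* and *wntD* had at most 6 counts in any library. *Wnt5* was thus the only one of these 6 ligands with more than 6 counts in a library.

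Among 10 genes for the lipidation, release and surface handling of Wnt proteins, 2 were lower and 1 was higher. Over all genes tested, 15.3% were lower and 12.6% higher. *dlp*, a glypican that binds Wingless at the cell surface, had 23.8 and 25.1 CPM in wild-type against 5.98 and 4.14 CPM in the mutant, 4.77-fold lower (log2 fold change -2.25, standard error 0.167, edgeR adjusted p = 2.8e-06). Its relative *dally* went the other way, with 20.9 and 19.7 CPM against 31.4 and 30.7 CPM (log2 fold change 0.61, edgeR adjusted p = 0.000683), although the call was lost with library sizes alone (0.42) and with an effective length offset (0.45), and its TPM values overlapped. The ratio of *dlp* to *dally* within a library was 1.25 and 1.34 in wild-type against 0.227 and 0.16 in the mutant. *Swim*, a secreted carrier of Wingless, fell by 1.34 on the log2 scale (edgeR adjusted p = 0.00319). The acyltransferase *por* (log2 fold change -0.06) and the cargo receptor *wls* (0.17) were not called.

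Of 7 other Wnt receptors that could be tested, 3 were lower and 0 higher, against 15.3% and 12.6% of all genes tested. *fz4* had 22.1 and 21.1 CPM in wild-type against 13.0 and 14.0 CPM in the mutant (log2 fold change -0.67, edgeR adjusted p = 0.000915). *fz3*, an attenuating Frizzled, fell from 53 and 49 counts to 26 and 17 (log2 fold change -1.67, edgeR adjusted p = 0.00146) and is named here because only 3 genes of the list were called. *Ror*, a receptor tyrosine kinase, stood at -0.77 (edgeR adjusted p = 0.025), but DESeq2 did not call it (adjusted p = 0.104), nor did the edgeR refits without wild-type replicate 1 (adjusted p = 0.143), without enhancer mutant replicate 1 (adjusted p = 0.0818) or without enhancer mutant replicate 2 (adjusted p = 0.143).

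The enzymes that act on Axin or Armadillo gave 2 higher and 0 lower calls among 12 tested genes. The shares over all genes tested were 12.6% higher and 15.3% lower. *SkpA*, a subunit of the SCF ubiquitin ligase, had 272 and 287 CPM in wild-type against 463 and 504 CPM in the mutant (log2 fold change 0.79, edgeR adjusted p = 0.000101). *mts*, the catalytic subunit of protein phosphatase 2A, had 356 and 362 CPM against 527 and 566 CPM (log2 fold change 0.61, edgeR adjusted p = 0.000488, and 0.41 with library sizes alone, which is below the threshold). Both proteins also serve many other pathways. *Tnks*, the tankyrase that marks Axin for destruction, lay just under the fold threshold (log2 fold change -0.49, edgeR adjusted p = 0.00164), and the ubiquitin ligase subunit *slmb* stood at -0.40 (edgeR adjusted p = 0.00465). On the higher side, the kinase gene *CkIalpha* stood at 0.46 (edgeR adjusted p = 0.00273). It was called higher with no filter on low counts and in some refits with a library left out. With library sizes alone *Tnks* and *slmb* were called lower and *mts* was lost, which turned the split to 1 higher and 2 lower. *Tnks* was also called lower with upper quartile factors, with an effective length offset, under the filter of 10 counts in each library and without enhancer mutant replicate 1.

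Of 14 nuclear factors, 3 were lower and 0 higher, against 15.3% and 12.6% of all genes tested. *pan*, the TCF protein, had 129 and 92.9 CPM in wild-type against 125 and 114 CPM in the mutant and was not called. The Armadillo adaptors *lgs* (log2 fold change -0.01, edgeR adjusted p = 0.93) and *pygo* (-0.28, edgeR adjusted p = 0.0247) were not called either. *pygo* missed only the fold threshold, as did *osa* (-0.47, edgeR adjusted p = 0.00531) and, in the other direction, *CtBP* (0.38, edgeR adjusted p = 0.00519). *osa* was called lower with upper quartile factors, with library sizes alone and in some refits with a library left out. *ebd1*, which aids Armadillo and TCF at some targets, had 213 and 234 CPM against 146 and 156 CPM (log2 fold change -0.56, edgeR adjusted p = 0.000759, with -0.48 without wild-type replicate 2 and -0.499 without enhancer mutant replicate 1). Its relative *ebd2* stood at -1.28 (edgeR adjusted p = 0.00195). *nej*, the CBP acetyltransferase, had 704 and 461 CPM against 390 and 325 CPM (log2 fold change -0.70, edgeR adjusted p = 0.00637). The wild-type libraries of *nej* differed widely: without replicate 1 of wild-type the value was -0.36, without enhancer mutant replicate 2 it was -0.56 (edgeR adjusted p = 0.121), and DESeq2 gave an adjusted p of 0.086.

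The list of genes known to answer to Wingless mixes genes that it induces with genes that it represses. Of the 6 tested, *nkd*, *fz* and *fz3* were lower, *Tig* was higher and *Notum* and *fz2* were not called. Among all genes tested, 15.3% were called lower and 12.6% higher. *Notum*, the secreted deacylase that inactivates Wnt proteins and is induced by them, had 57.1 and 57.1 CPM in wild-type against 58.4 and 49.1 CPM in the mutant (log2 fold change -0.09, edgeR adjusted p = 0.516). *Tig*, a matrix protein that Wingless represses in blood-derived cells, had 59.0 and 48.0 CPM against 101 and 90.2 CPM (log2 fold change 0.84, edgeR adjusted p = 0.000245). *hth* had 0 counts in every library.

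In the planar polarity branch, which also uses *fz* and *dsh*, 1 of 3 tested genes was called, against 27.9% of all genes tested. This was *dgo*, an ankyrin repeat protein that binds Dishevelled, with 38 and 21 counts in wild-type against 7 and 3 in the mutant (log2 fold change -2.94, edgeR adjusted p = 0.00084). Like *fz3*, it lies below the abundance limit for named genes and is given because it is the only call of its list. *Vang* was not called (0.20). At adherens junctions, *shg*, also 1 of the epithelium markers above, which encodes the E-cadherin that holds Armadillo at the membrane, had 43.7 and 40.6 CPM in wild-type against 18.0 and 16.1 CPM in the mutant (log2 fold change -1.31, edgeR adjusted p = 4.98e-06). The other junction genes did not follow it, with *alpha-Cat* at 0.45 (edgeR adjusted p = 0.0194) and *p120ctn* at 0.30 (edgeR adjusted p = 0.0242), both under the fold threshold. The TPM ratio of *shg* to *arm* was 0.0171 and 0.0144 in wild-type against 0.00556 and 0.00495 in the mutant.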

How the data were processed

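The authors quantified transcripts with Salmon 0.10.2 on dm6, with mapping scores checked by alignment and GC bias corrected, and the estimated counts and TPM values were deposited per transcript and library. The deposited estimated counts are not normalized, and the deposited TPM values are per effective length. The annotation release is not given in the sources used here. Of 30070 transcripts, 29850 matched Ensembl release BDGP6.54 (dm6 coordinates), and the others held 0.23% to 0.292% of counts. Estimated counts were summed per gene, rounded, filtered with filterByExpr, normalized by TMM and tested with edgeR 4.0.16 in R 4.3.3 over 8182 genes (glmQLFit, glmQLFTest, Benjamini-Hochberg), with all 4 libraries in the fit and no covariate. For the standard error, the size of the fitted log2 change was divided by the root of its F statistic. Transcripts were tested alike. An exact permutation test of 2 against 2 libraries cannot go below p = 0.333, and the edgeR p values depend on dispersions that borrow from all genes (biological coefficient of variation 0.0849).

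Genes at up to 3 counts were at the floor. All members were named, with up to 4 called genes per list at a mean log2 CPM of at least 1. Exceptions are described as such, and uncalled genes are quoted for context. Members and lists were chosen with earlier results of these data known. Alternatives were other scalings and filters, DESeq2 1.42.0, a replicate block, leaving each library out, other thresholds and, chosen after seeing the data, ratios of mean TPM. Counts cover sampling noise only at the depths given, and *Wnt10* was not analysed here.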

Additional observations from a re-analysis of the deposited data

How the results depend on the processing

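The same 5 members were called with RLE or upper quartile factors, library sizes alone, no filter, at least 10 counts in every library, an effective length offset, DESeq2, the adjusted p alone and a change of at least 1.5-fold. With each library left out the number was 4 to 5 and that of other pathway genes 12 to 15, and a lone library of a genotype was then assumed to vary like the other pair. Other pathway genes called numbered 29 on the adjusted p alone, and 12 to 18 under the other settings, with 16 lower and 2 higher at library sizes alone. Called member transcripts numbered 0 to 2 with a library left out and 7 with at least 10 counts in every library. In the fit with a replicate block the members called were the same 5, the other pathway genes 14, and the member transcripts 1 (*Apc-RC*). Same-numbered libraries deviated together with a correlation of 0.168 across genes, and the labels do not say that the numbers mark a shared culture or day. Signs turned for uncalled genes: *sgg* was -0.0035 with upper quartile factors, -0.17 with library sizes alone, -0.045 without enhancer mutant replicate 2 and -0.38 in TPM. With each library left out, *sgg* ranged from -0.045 to 0.13, *fz2* from -0.33 to 0.023 and *Notum* from -0.20 to 0.044, with the highest *fz2* and *Notum* values without enhancer mutant replicate 2. *dsh* ranged from -0.14 to 0.0054, the latter without wild-type replicate 2. In TPM, *arm* was -0.19 and *Wnt5* -0.23, where the median of all genes tested was -0.44, against -0.20 with library sizes alone. The causes were not tested. Depth limits *nkd*, *fz3* and *dgo*, whose mutant libraries held 3 to 26 counts.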
